A study of Mus musculus with 12 samples.

Results

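The 9 immediate early stress genes described here are Fos, Fosb, Jun, Junb, Egr1, Atf3, Ier2, Dusp1 and Zfp36, in whole mouse embryos at E8.5 (embryonic day 8.5). They were taken by symbol from the 22467 transcripts of the count table, and all 9 were found, with 1 transcript each. Of the 9, 8 passed the filter on low counts and Fosb did not. At a false discovery rate (FDR) of 0.1, 0 of the 8 tested genes passed the test between Rpl10a LOF/LOF and wild-type embryos in ribosome footprints (2.19% of all transcripts), RNA (5.02%) or translation efficiency (0.0%). Without LOF/LOF replicate 2, 2 of the 8, Junb and Ier2, passed in footprints, where 1449 of 12576 transcripts passed. The highest footprint levels of the group as a whole were those of LOF/LOF replicates 1 and 3, while LOF/LOF replicate 2 lay within the wild-type range.

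Immediate early genes are transcribed within minutes of a stimulus without new protein synthesis, and their mRNAs are short-lived. Serum, growth factors acting through ERK, and stress acting through JNK and p38 all induce them, and tissue dissection and dissociation are well-known triggers. Fos and Jun family proteins dimerise into the transcription factor AP-1, Egr1 is a zinc-finger transcription factor, and Atf3 is a stress-induced bZIP factor. Dusp1 encodes a phosphatase that switches MAP kinases off, Zfp36 encodes an RNA-binding protein that promotes decay of mRNAs with AU-rich elements, and Ier2 encodes a nuclear protein induced with them.

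The samples were 3 Rpl10a +/+ embryos (wild type, WT) and 3 embryos homozygous for the Rpl10a LOF allele (LOF). RPL10A is a protein of the large ribosomal subunit, and the LOF allele, made with CRISPR, is a germline change present in every cell that reduces rather than removes function. Cycloheximide, a drug that arrests elongating ribosomes, was in the cold dissection buffer at 100 µg/mL, and no embryos were pooled. Of the lysate of an embryo, 1 part gave a library of ribosome-protected fragments (RPF) and another an RNA library, 12 libraries in all. Both genotypes were dissected in the drug, and the design holds no embryo without it, so how far dissection or cycloheximide set the levels was not tested.

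RPF libraries held 7041357 to 10863499 counts. RNA libraries held 9132521 to 26561843, and the shallow RNA libraries were WT replicate 1, with 9132521, and LOF replicate 3, with 9570935. Levels are given in CPM, the count of a gene scaled to a library total of 1000000. Rpl10a itself was at 1621 ± 54.1 CPM in WT and 1030 ± 75.5 CPM in LOF RPF (SD, n = 3 embryos, log2 fold change -0.64, edgeR FDR 0.0069). Its RNA was at 814 ± 36.4 CPM in WT and 691 ± 36.6 CPM in LOF (log2 fold change -0.23, edgeR FDR 0.068). The reads of 4 genes of the Y chromosome (Uty, Kdm5d, Eif2s3y, Ddx3y) summed to 163 to 183 CPM in the 6 WT libraries and 154 and 167 CPM in those of LOF replicate 2. In LOF replicates 1 and 3 it was 9.09 CPM or less. The RPF calls of the immediate early genes are therefore also given without LOF replicates 1 and 3, a choice made after seeing the data, while the calls of the other gene lists and of the markers are given with all embryos alone. Of 9 markers of the E8.5 embryo proper, 8 passed the filter, and Mesp1 did not.

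In GRCm38 coordinates (GENCODE M21), Fos lies at chr12:85473890-85477273 on the plus strand and Fosb at chr7:19302696-19310051 on the minus strand, with 4 exons each. Jun at chr4:95049034-95052222, Junb at chr8:84976910-84978718 and Ier2 at chr8:84661331-84662852, all on the minus strand, are genes of 1 exon. Egr1 lies at chr18:34859823-34864984 on the plus strand and has 2 exons. On the minus strand lie Atf3 at chr1:191170296-191218039 with 4 exons, Dusp1 at chr17:26505590-26508519 with 4 and Zfp36 at chr7:28376784-28380253 with 2. The antisense genes Junos and Gm44710 overlap Jun and Zfp36, and the small RNA gene Gm24748 lies within Atf3. The sources used here do not give whether counting used the strand, so reads of Jun and Zfp36 in those overlaps cannot be assigned with certainty.

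Ier2 had the most footprints per kb of the 9 genes and Fosb was almost absent. To compare genes, CPM were divided by length, with RPF per kilobase of the coding sequence counted and RNA per kilobase of transcript. In WT embryos Ier2 stood at 111.6 ± 9.21 RPF CPM per kb (SD, n = 3), the 88.1st percentile of the transcripts tested. Jun stood at 23.9 ± 0.702, Dusp1 at 11.8 ± 1.13, Atf3 at 6.87 ± 1.13, Junb at 6.83 ± 0.465 and Zfp36 at 5.19 ± 0.808 RPF CPM per kb. Fos at 1.56 ± 0.661 and Egr1 at 0.678 ± 0.148 were low, at the 11.6th and 4.12th percentiles, and the median transcript stood at 13.9. The RPF ranges of neighbours in this WT order overlapped for Atf3 and Junb and for no other neighbours.

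In RNA the WT order per kb was nearly the same, with Ier2 at 29.0 ± 1.31 CPM per kb and Jun at 10.2 ± 0.718, against a median of 9.92. Dusp1 followed at 4.87 ± 0.372, Junb at 4.64 ± 0.560, Atf3 at 3.43 ± 0.633, Zfp36 at 1.35 ± 0.220, Fos at 0.897 ± 0.244 and Egr1 at 0.426 ± 0.0389. Here Dusp1 overlapped Junb and Zfp36 overlapped Fos in their ranges over embryos. The ratios of RPF per kb to RNA per kb of Ier2 and Zfp36 in WT were 3.84 and 3.86, both close to the 90th percentile, against a median of 1.73. That of Zfp36 rests on a counted transcript of 2790 nt that starts 1025 bases upstream of the RefSeq start and overlaps Gm44710, and would be lower with a shorter transcript. The ratio of Junb in WT, 1.48, was the lowest of the 8 genes, and that of Egr1 was 1.57.

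**Figure D1:**
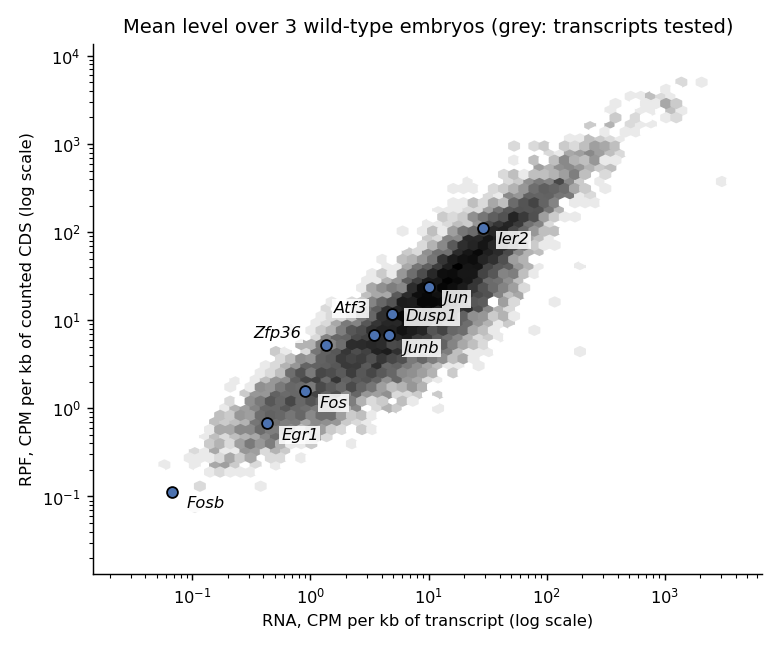
Mean RNA level (horizontal axis, CPM per kb of transcript, log scale) and mean RPF level (vertical axis, CPM per kb of counted coding sequence, log scale) of the 9 genes over 3 WT embryos, drawn as points over the density of the transcripts tested in grey. Ier2, at 111.6 RPF CPM per kb, lies high in the cloud, Fos and Egr1 lie at its low end, and Fosb lies below it.

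The AU-rich element is the best known sequence of this gene class. It lies in the 3′ UTR, is bound by ZFP36 and related proteins, and marks an mRNA for rapid decay. The pentamer ATTTA occurred in the 3′ UTR of 8 of the 9 genes, and Ier2, the most abundant, had none. Within the last 450 nt it was in 7 of 9, against 55.9% of the 8991 transcripts tested whose 3′ UTR was that long. The stricter nonamer TTATTTATT occurred within the last 450 nt of the 3′ UTRs of Fos, Dusp1 and Zfp36, which is 3 of 9 genes, against 2.99%. The heptamer TATTTAT, which lies inside the nonamer and contains the pentamer, was in 5 of 9 against 14.4%. Only the transcript strand was searched, and a match is a description of letters. The sites of these 3 genes are shown from the GENCODE transcripts with each ATTTA in capitals, because they are the element itself, and a stretch of Jun, which has 4 pentamers in its 3′ UTR and no nonamer, is shown for contrast with 2 of them. The Fos site is at chr12:85477100-85477129 on the plus strand, the Dusp1 site at chr17:26506157-26506186, the Zfp36 site at chr7:28376958-28376987 and the Jun site at chr4:95049207-95049236, the last 3 on the minus strand. Dusp1 has 2 nonamers, and its site shown starts 94 nt into the 3′ UTR, ahead of the last 450 nt.
Fos: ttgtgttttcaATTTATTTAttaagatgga
Dusp1: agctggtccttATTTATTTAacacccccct
Zfp36: cctttATTTAtgacgactttATTTAttgta
Jun: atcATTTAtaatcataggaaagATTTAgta

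The promoters of several of the genes carry the cAMP response element core, TGACG, which CREB and ATF proteins bind. RefSeq promoter sequences (GRCm38.p6, from 250 bases before to 50 after the start) were matched for 7 of the 9 genes, all but Egr1 and Ier2. On either strand TGACG was in 5 of the 7, those of Fos, Fosb, Junb, Atf3 and Dusp1, against 20.8% of 32851 promoters. The full element TGACGTCA, which contains the core on both strands, was in that of Dusp1 alone, against 1.79%. The CArG box, bound by SRF, was in that of Zfp36 alone, against 1.63%, and sequence farther upstream was not searched. The AP-1 site, TGACTCA or TGAGTCA, was in none of the 7 windows and in 5.20% of all. The RefSeq start, from which distances are given, is that of the transcript counted here for Fos and Jun. It lies 6, 30 and 47 bases from it for Fosb, Junb and Dusp1, 1025 for Zfp36 and 34706 for Atf3. The sites nearest the start in Fos (chr12:85473812-85473841, plus strand, 66 bases before the start) and Junb (chr8:84978837-84978866, minus strand, 106 bases), and the full element of Dusp1 (chr17:26508598-26508627, minus strand, 143 bases), are shown with the element in capitals, as examples from a Fos gene, a Jun gene and a feedback gene.
Fos: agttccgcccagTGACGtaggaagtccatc
Junb: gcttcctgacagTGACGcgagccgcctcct
Dusp1: cggtagggcgggTGACGTCAccgcccggtc

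The question was whether the genotypes differed in these genes, which serve as a readout of stress during handling and of AP-1. Genotypes were compared in RPF, in RNA and in translation efficiency, the change of RPF relative to RNA, with the quasi-likelihood test of edgeR over 12576 transcripts and Benjamini-Hochberg FDR. Positive log2 fold changes are higher in LOF. In RPF 0 of 8 genes passed, against 2.19% of all transcripts, and in RNA 0 of 8, against 5.02%. In translation efficiency 0 of 8 passed, against 0.0% of all transcripts, where DESeq2 called 4 transcripts and none of these genes. At an unadjusted p below 0.05 there were 2 of 8 in RPF (13.7% of all), 0 of 8 in RNA (17.0%) and 2 of 8 in translation efficiency (4.44%), and in both cases the 2 were Junb and Ier2.

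Log2 fold changes were above 0 for 6 of 8 genes in RPF (50.9% of all transcripts) and for 5 of 8 in RNA (49.4%). The median over the 8 genes was 0.25 in RPF, 0.04 in RNA and 0.25 in translation efficiency, where the medians of all transcripts were 0.004, -0.002 and 0.007. With 1 embryo left out, the RPF median ran from 0.16 to 0.36. With the Y-linked level as a covariate it was -0.005 in RPF and 0.21 in translation efficiency. With LOF replicate 2 as the only LOF embryo it was 0.02 in RPF and -0.04 in translation efficiency. The RPF values of all LOF embryos lay above those of all WT embryos for 1 of 8 genes, Junb (9.34% of all transcripts), and the RNA values for 1 of 8, Egr1 (8.48%).

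**Figure D2:**
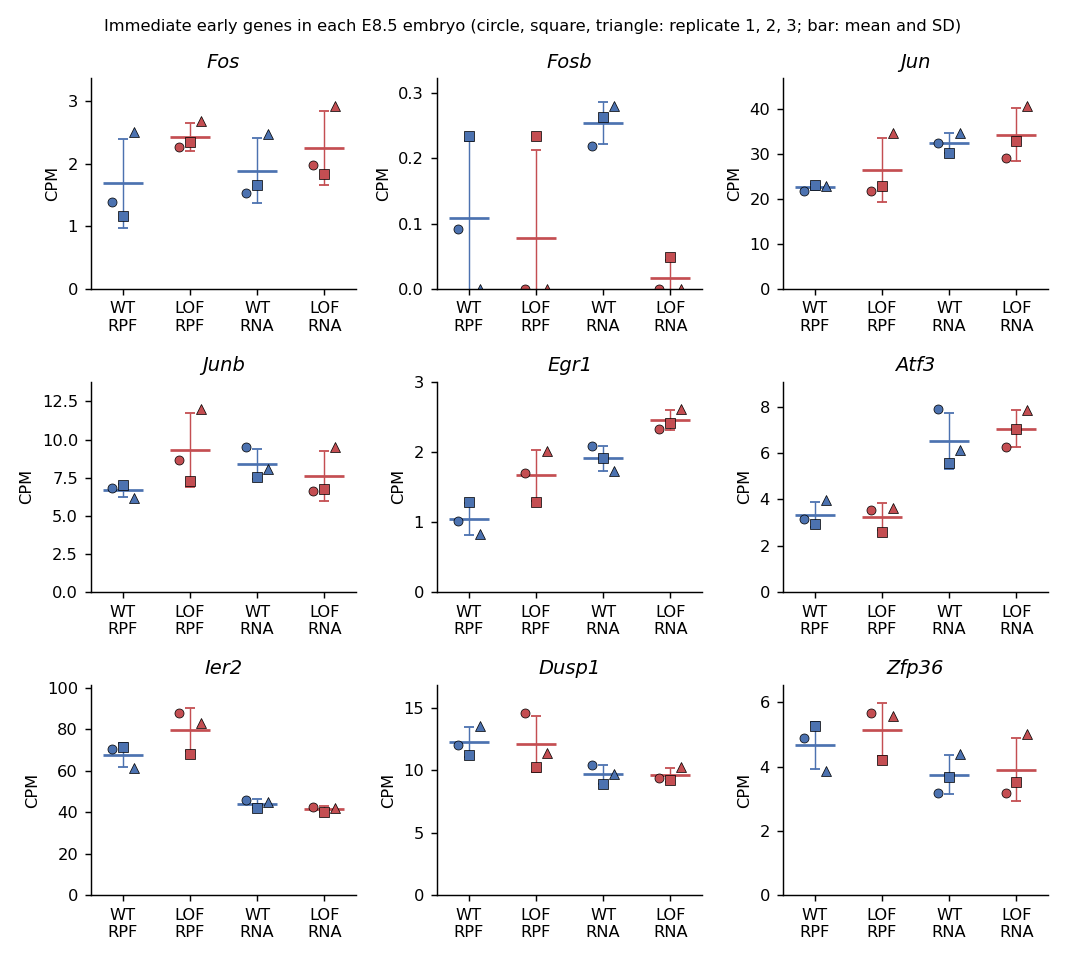
CPM of each of the 9 genes (1 panel each, vertical axis from 0) in WT (blue) and LOF (red) embryos, in RPF and RNA, with circle, square and triangle for replicates 1, 2 and 3 and the horizontal bar and whiskers for the mean and SD of 3 embryos. Junb in RPF and Egr1 in RNA separate the genotypes upwards and Fosb in RNA downwards, while other panels overlap. Fosb was below the filter, with 0 to 7 RNA counts a library, and the share of all transcripts separating downwards was not counted.

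Of the AP-1 genes, Junb had the clearest RPF difference. Junb, a Jun family protein that is a weaker activator than JUN, was at 6.81, 7.02 and 6.15 RPF CPM in WT replicates 1 to 3 and at 8.66, 7.25 and 11.99 in LOF. All LOF embryos were above all WT embryos, replicate 2 by little and replicate 3 by much. The RPF log2 fold change was 0.50 ± 0.19 (SE, n = 3 embryos a genotype, edgeR p = 0.024, FDR 0.280), and the exact permutation p of the CPM was 0.1, the smallest that 3 embryos against 3 allow. Junb RNA did not follow, at 9.53, 7.57 and 8.10 CPM in WT and 6.59, 6.77 and 9.51 in LOF, and the ranges overlapped. Its RNA log2 fold change was -0.14 (95% interval -0.49 to 0.21). The ratio of RPF per kb to RNA per kb was 1.33, 1.72 and 1.41 in WT and 2.44, 1.99 and 2.34 in LOF, without overlap. The same held for Ier2, by a narrow margin (at most 4.261 in WT and at least 4.265 in LOF), so 2 of 8 genes separated upwards in this ratio, against 7.33% of all transcripts. For Junb the difference in translation efficiency was 0.65 ± 0.26 on the log2 scale (SE, edgeR FDR 1.00).

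Jun, the principal partner of FOS, was at 21.8, 23.1 and 22.8 RPF CPM in WT and 21.7, 22.9 and 34.6 in LOF. Only LOF replicate 3 was high, and without it the RPF log2 fold change went from 0.25 to 0.004. Jun RNA was at 32.4, 30.2 and 34.8 CPM in WT and 29.2, 33.0 and 40.7 in LOF, again with LOF replicate 3 highest, and the RNA log2 fold change was 0.08 (95% interval -0.18 to 0.33).

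Fos was low in every library. It was at 1.38, 1.17 and 2.50 RPF CPM in WT and 2.27, 2.34 and 2.69 in LOF, from 10 to 28 counts a library, so that WT replicate 3 lay among the LOF embryos. The RPF log2 fold change was 0.54 with a 95% interval from -0.14 to 1.23 (edgeR FDR 0.482), and it was 0.36 without WT replicate 2 and 0.93 without WT replicate 3. Fos RNA, at 1.53, 1.66 and 2.48 CPM in WT and 1.98, 1.84 and 2.93 in LOF, was high in replicate 3 of both genotypes, and its log2 fold change was 0.16 (95% interval -0.41 to 0.73).

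Fosb, the other Fos family gene of the 9, had 0 to 2 RPF counts in each library, 3 in all in WT and 2 in LOF. In RNA it had 2, 7 and 6 counts in WT and 0, 1 and 0 in LOF, which is 0.22, 0.26 and 0.28 CPM against 0, 0.05 and 0. Every WT embryo had RNA reads of Fosb and 1 LOF embryo had a read. The ratio of WT to LOF over the pooled RNA counts, 15 against 1, was 13.3, with an exact 95% interval of 2.04 to 558 that covers counting error only. Fosb was not among the genes tested. With no filter its RNA difference had an edgeR p of 0.0036 and an FDR of 0.101.

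Atf3, which dimerises with Jun proteins and is induced in many stresses, was at 3.13, 2.93 and 3.96 RPF CPM in WT and 3.55, 2.57 and 3.64 in LOF. The genotypes overlapped over most of their range, with an RPF log2 fold change of -0.03 (95% interval -0.54 to 0.48). Atf3 RNA was at 7.88, 5.57 and 6.13 CPM in WT and 6.25, 7.02 and 7.84 in LOF, and the highest value of each genotype was nearly the same. The RNA log2 fold change was 0.14 (95% interval -0.20 to 0.48).

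Egr1, outside the AP-1 family, had few counts. It was at 1.01, 1.29 and 0.83 RPF CPM in WT and 1.70, 1.29 and 2.01 in LOF, from 8 to 21 counts, and LOF replicate 2 was level with WT replicate 2. The RPF log2 fold change was 0.70 (95% interval -0.01 to 1.42, edgeR FDR 0.371), and it was 0.31 without LOF replicates 1 and 3. In RNA Egr1 was at 2.08, 1.92 and 1.73 CPM in WT and 2.33, 2.42 and 2.61 in LOF, so here all LOF embryos were above all WT embryos. The RNA log2 fold change was 0.38 ± 0.18 (SE, edgeR p = 0.061, FDR 0.325), and the exact permutation p was 0.1.

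Ier2 gave the most precise values, from 583 to 865 RPF counts a library. It was at 70.4, 71.3 and 61.2 RPF CPM in WT and 88.1, 68.2 and 83.0 in LOF. LOF replicates 1 and 3 were above all WT embryos and replicate 2 was among them. The RPF log2 fold change was 0.25 ± 0.11 (SE, edgeR FDR 0.341). Ier2 RNA barely moved between embryos, at 45.9, 42.0 and 44.7 CPM in WT and 42.5, 40.2 and 42.3 in LOF, and its log2 fold change was -0.07 (95% interval -0.22 to 0.07). The difference in translation efficiency was 0.32 ± 0.13 on the log2 scale (SE, edgeR FDR 1.00).

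The genes of negative feedback were close between genotypes. Dusp1 was at 12.1, 11.2 and 13.6 RPF CPM in WT and 14.6, 10.3 and 11.4 in LOF, so that the LOF embryos spanned the WT range. Dusp1 RNA was at 10.4, 8.92 and 9.74 CPM in WT and 9.37, 9.19 and 10.2 in LOF, within a narrow band. The log2 fold change of Dusp1 was -0.02 in RPF (95% interval -0.37 to 0.33) and 0.003 in RNA (95% interval -0.23 to 0.24). Zfp36 was at 4.88, 5.27 and 3.86 RPF CPM in WT and 5.68, 4.21 and 5.56 in LOF, with a log2 fold change of 0.15 (95% interval -0.29 to 0.60). Zfp36 RNA, at 3.18, 3.69 and 4.40 CPM in WT and 3.17, 3.53 and 5.02 in LOF, was highest in replicate 3 of each genotype, and its log2 fold change was -0.01 (95% interval -0.45 to 0.42).

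**Figure D3:**
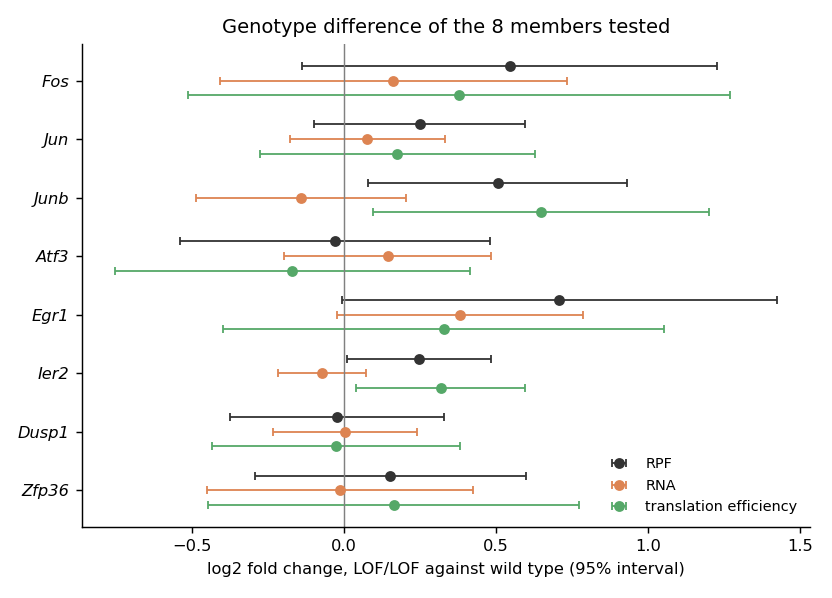
Log2 fold change of LOF against WT (horizontal axis) with its 95% interval for the 8 genes tested, in RPF (black), RNA (orange) and translation efficiency (green), from 3 embryos a genotype. Only Junb and Ier2 have intervals above 0, in RPF and in translation efficiency, and neither passed the FDR of 0.1.

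The 8 genes were then followed together in each embryo. Their mean log2 deviation from the average of the 6 RPF libraries was -0.18, -0.14 and -0.11 in WT and 0.22, -0.11 and 0.31 in LOF. In LOF replicates 1 and 3, 7 of 8 genes were above their own RPF mean, in LOF replicate 2 it was 1 of 8, and in WT 0, 1 and 3 of 8. These levels were normalized within each kind of library, and the same count over all transcripts was not made. LOF replicate 1 was the shallowest RPF library, with 7041357 counts, and the part of depth was not tested. In RNA the mean deviation was 0.01, -0.16 and 0.03 in WT and -0.09, -0.04 and 0.26 in LOF, so that LOF replicate 1 was high in RPF but not in RNA. Of the 8 genes, 4, 0 and 6 were above their RNA mean in WT and 1, 3 and 7 in LOF. The summed level of the 9 genes showed the same pattern, at 122, 123 and 115 RPF CPM in WT and 146, 119 and 155 in LOF, and at 113, 102 and 112 RNA CPM in WT and 101, 104 and 121 in LOF.

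**Figure D4:**
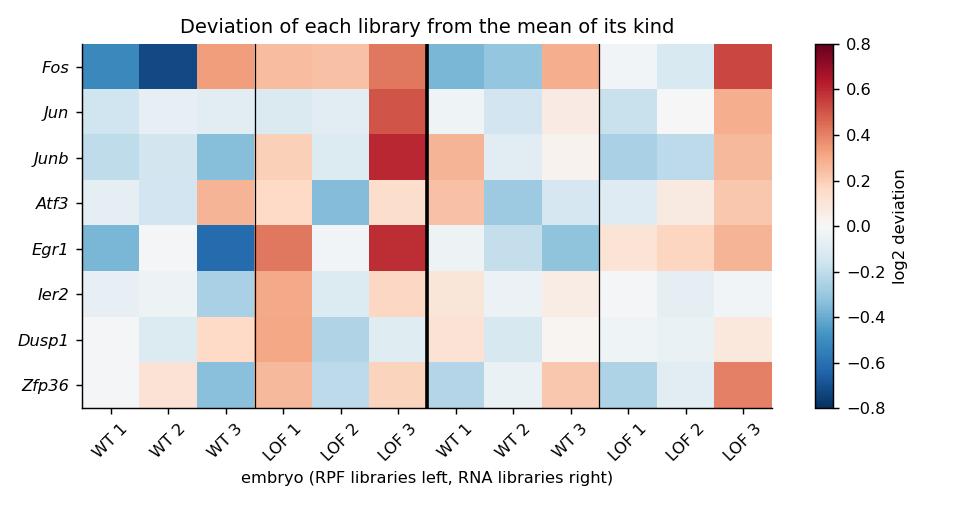
Log2 deviation (colour, red above and blue below the mean) of the 8 genes tested (rows) in each RPF library and each RNA library (columns) from the mean of the 6 libraries of its kind. LOF replicates 1 and 3 are mostly red in RPF, where 7 of 8 genes were above their mean, and in RNA most genes are above their mean in LOF replicate 3 (7 of 8) and WT replicate 3 (6 of 8).

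LOF replicates 1 and 3 are also the embryos whose Y-linked level was 9.09 CPM or less, so in RPF the genotype and the Y-linked level cannot be told apart in these embryos. Without LOF replicate 2, the remaining pair of LOF embryos against the 3 WT embryos gave 2 of 8 genes called in RPF, Ier2 with a log2 fold change of 0.35 (edgeR FDR 0.034) and Junb with 0.67 (FDR 0.046), where 1449 transcripts in all were called. With LOF replicate 2 as the only LOF embryo, assumed to vary like the WT embryos, 0 of 8 were called, the RPF log2 fold change of Ier2 was 0.01, that of Junb 0.12 and that of Egr1 0.31, and 5 of 8 were above 0. In that fit 486 of 12576 transcripts were called. With the Y-linked level as a covariate, 0 of 8 were called in RPF, where 22 of 12576 transcripts were, and 4 of 8 were above 0. The value of Junb was then 0.07 and that of Ier2 0.08. Fos, at 0.42, and Egr1, at 0.32, stayed higher, and with LOF replicate 2 as the only LOF embryo Fos was at 0.46. With 1 LOF embryo left out, Junb was at 0.27 without replicate 3 and Ier2 at 0.15 without replicate 1, and neither was called.

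**Figure D5:**
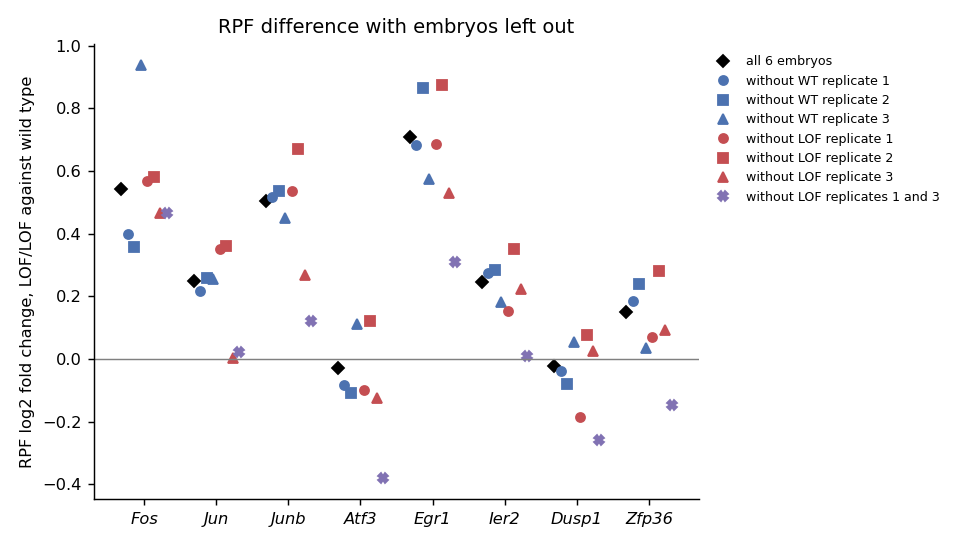
RPF log2 fold change of LOF against WT (vertical axis) for the 8 genes tested, with all 6 embryos (black diamond), with each WT embryo (blue) or LOF embryo (red) left out, and with LOF replicates 1 and 3 both left out (purple cross). Values without LOF replicate 2 (red square) reach 0.67 for Junb, and those without LOF replicates 1 and 3 are 0.12 for Junb and 0.01 for Ier2.

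Within a genotype, the RNA of most of these genes varied more between embryos than that of a typical transcript. The SD of log2 CPM around the genotype means (6 embryos, 4 degrees of freedom) was 0.36 for Fos, 0.29 for Zfp36, 0.24 for Junb, 0.22 for Atf3 and 0.18 for Jun, between the 77.9th and 92.7th percentiles of all transcripts. Counting alone gives SDs of 0.26, 0.19, 0.13, 0.14 and 0.06 for them. Egr1 at 0.12 and Dusp1 at 0.10 were at or below their counting SDs of 0.25 and 0.12, and Ier2 at 0.06 was at the 20.8th percentile. The median of all transcripts was 0.10. In RPF the SD ran from 0.17 for Ier2 to 0.40 for Fos, all above the median of 0.155, and those of Egr1 and Atf3 were below their counting SDs of 0.42 and 0.27. LOF replicate 3, with 7 of 8 genes above their RNA mean, was a shallow RNA library with 9570935 counts, and the part of depth was not tested.

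Genotype differences among the other genes of the pathway are given list by list, beside 2.19% of all transcripts called in RPF and 5.02% in RNA. Of 30 further immediate early genes, 27 were tested, 1 rose and 1 fell in both RPF and RNA, and the median log2 fold change was 0.21 in RPF and 0.003 in RNA, with 21 of 27 above 0 in RPF and 14 of 27 in RNA. The gene that rose was Plk2, a polo-like kinase, from 61.5 ± 2.94 to 80.8 ± 8.63 RPF CPM (SD, n = 3 embryos, edgeR FDR 0.060), with 0.39 in RNA on the log2 scale (FDR 0.041). Sgk1, a serum- and glucocorticoid-induced kinase, fell from 55.2 ± 5.89 to 40.9 ± 0.941 RPF CPM (FDR 0.072), with a log2 fold change of -0.57 in RNA (FDR 0.0100). Both separated all LOF from all WT embryos in RPF and in RNA.

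Upstream of AP-1, 0 of 17 MAP kinase and ternary complex factor genes passed in RPF and 1 fell in RNA. That was Map2k1, encoding the ERK activator MEK1, at 136.2 ± 4.70 RNA CPM in WT and 115.6 ± 5.28 in LOF (n = 3, edgeR FDR 0.043). Map2k6, encoding a p38 activator, had the lowest p in RPF, with a log2 fold change of -0.49 (FDR 0.127). Of 13 MAP kinase phosphatases and feedback inhibitors besides Dusp1, 1 rose and 1 fell in RPF and none passed in RNA. Dusp2 rose from 3.78 ± 0.649 to 7.01 ± 1.97 RPF CPM (FDR 0.095), and Dusp4, which acts in the nucleus on ERK, fell from 120.7 ± 9.11 to 92.3 ± 8.57 (FDR 0.090). In RNA the lowest p was that of Dusp9, with a log2 fold change of -0.20 (FDR 0.114).

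None of the 10 AP-1 partners and inhibitors tested passed in RPF or RNA, and Atf7 had the lowest p in RNA (log2 fold change 0.35, edgeR FDR 0.122). None of the 8 proteins that bind AU-rich elements passed either, with Hnrnpd at -0.13 in RPF (FDR 0.486) and Khsrp at 0.20 in RNA (FDR 0.142). Of 16 genes known as AP-1 targets in other cells, 11 were tested, and the inducible Mmp3, Mmp13, Il6, Ccl2 and Lif were below the filter. Among the 11, Cd44, a hyaluronan receptor, rose in RPF (0.57, FDR 0.057) and in RNA (0.61, FDR 0.029), from 18.1 ± 1.76 to 27.9 ± 4.46 RNA CPM (n = 3). Spp1, encoding osteopontin, fell in RNA with a log2 fold change of -1.02 (FDR 0.083), from 10.4 ± 2.57 to 5.50 ± 2.40 CPM. In RPF the log2 fold change of Spp1 was -0.08 (FDR 0.953), and the genotypes overlapped. Of 11 heat shock genes tested, 0 passed in RPF, where 1 of 11 was above 0, and Dnajb1, an HSP70 cochaperone, fell in RNA with -0.23 (FDR 0.069). Hspa1a and Hspa1b, the heat-inducible HSP70 genes, were below the filter.

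The transcripts whose profile over the 12 libraries was most like the mean profile of the 8 genes were Cd151, Elk3, Akr1e1, Pef1 and Rhob, in that order. They were ranked among 7810 transcripts with at least 10 CPM in both kinds of library by the root mean square difference of centred log2 CPM, which was 0.069 for Cd151 and 0.082 for Rhob, where the median was 0.192. Jun, at 0.120, and Ier2, at 0.124, were the nearest of the 8 genes to their own mean, and Fos, at 0.302, the farthest.

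Markers of other cell types moved with genotype, and their part in the values above was not tested. In whole embryos, fewer cells of a type and less RNA per cell cannot be told apart. Of 8 visceral endoderm markers, 7 fell in RPF, all but Afp (log2 fold change -0.99, edgeR FDR 0.109), and 8 in RNA, and their summed RPF level was 6206 to 8186 CPM in WT and 2230 to 4707 in LOF. Of 7 primitive erythroid markers, 3 rose in RPF (Hbb-y, Klf1 and Alas2) and 1 in RNA (Alas2), with summed RPF levels of 837 to 2818 CPM in WT and 3460 to 5814 in LOF. None of the 7 endothelial, 5 trophoblast, 3 decidual and 4 macrophage and neutrophil markers tested passed in RPF or RNA. Their summed RPF levels were 466 to 484 and 428 to 597 CPM for endothelium, 14.3 to 22.5 and 17.9 to 54.0 for trophoblast, 142 to 308 and 102 to 347 for decidua and 13.2 to 19.3 and 14.2 to 23.97 for macrophages and neutrophils, in WT and LOF. LOF replicate 3 had the highest sum for endothelium, trophoblast and macrophages, and LOF replicate 1 for decidua. The markers Mesp1, Tpbpa, Prg2, Adgre1 and S100a9 were below the filter, and 0 markers lacked reads in all RNA libraries. Of the embryo proper, 0 of 8 markers passed in RPF and 1 rose in RNA, Tbx5, a heart and limb transcription factor (log2 fold change 0.51, edgeR FDR 0.045). These markers were named after their values were seen.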

How the data were processed

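RPF and RNA libraries of 3 WT and 3 LOF embryos were grouped from the labels. The authors removed adapters with cutadapt, aligned reads with Bowtie2 to canonical GENCODE transcripts of GRCm38/mm10 and removed duplicates with UMI-tools. The deposited values are counts that were not normalized. An RPF count omits the 15 codons after the start and the 5 before the end of the CDS, so footprints there are not seen, whereas an RNA count takes in UTRs too. Symbols came from GENCODE M21, which matched 21987 transcripts by version, 477 by another version and not 3.

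Transcripts above 0.75 CPM in at least 3 RPF libraries were kept (12576 of 22467), normalized by TMM within RPF and RNA, and tested with the quasi-likelihood test of edgeR 4.0.16 in R 4.3.3 (FDR < 0.1), with genotype as the only factor. Translation efficiency was the interaction of genotype and library kind over 12 libraries, with no term for the embryo that gave both libraries. With a block for embryo, 0 of 8 genes were called in translation efficiency. The lowest edgeR FDR among them was then 0.567, and the value of Junb was 0.60. The filter, normalization and threshold follow the study. Its voom, limma and sva steps were alternatives, because their design is not given. Per-kb RPF levels used the CDS without the codons left out. The tests were checked on simulated data. Alternatives were DESeq2 1.42.0, limma-voom (limma 3.58.1), the same with 2 surrogate variables (sva 3.50.0), RLE factors, other filters, blocks, a Y-linked covariate and embryos left out.

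The genes, lists and tests were chosen with earlier results of these data known. All 9 genes are given. From each other list the text names up to 3 called genes with the largest change in RPF and in RNA, or, where none was called, the gene with the lowest p. One result under this rule is not reported here. For likeness it names the 5 nearest transcripts. The older symbols Cyr61 and Ctgf were matched as Ccn1 and Ccn2. Replicate numbers of the genotypes belong to different embryos.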

Additional observations from a re-analysis of the deposited data

How the results depend on the processing

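Besides the values above, 16 settings were tried, 1 of them (LOF replicates 1 and 3 left out together) chosen after seeing the data, which gave 368 values. Of these, 333 kept the direction and the side of the threshold. None of the genes tested was called in RNA or translation efficiency under these settings. In RPF 0 to 2 were called as embryos were left out in turn, and 0 under the other settings. The 2 were Ier2 (0.35) and Junb (0.67) without LOF replicate 2, where 1449 of 12576 transcripts were called. The lowest RPF FDR of the 8 genes with all 6 embryos was 0.133, with sva. With a block for replicate number, 0 of 8 were called in RPF, RNA and translation efficiency. The labels do not say that a number marks a shared litter, and deviations of same-numbered embryos correlated at -0.035, -0.083 and 0.012 in RPF and -0.037, -0.097 and 0.088 in RNA. Over all transcripts the block moved the RPF calls from 276 to 313 and the RNA calls from 631 to 528. Counts of 4 to 1449 RPF calls, 138 to 594 RNA calls and 0 to 26 translation efficiency calls over all transcripts came from leaving out single embryos. The Y-linked covariate left 22 RPF and 35 RNA calls, sva gave 1306 RPF calls, no filter 437, and LOF replicate 2 alone against WT 486 RPF and 100 RNA calls.

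Of the log2 fold changes that crossed 0, none was called, and the cause was not tested. With the Y-linked covariate these were, in RPF, Jun (-0.095) and Zfp36 (-0.079), and in RNA, Fos (-0.118), Jun (-0.017) and Dusp1 (-0.056). Without LOF replicates 1 and 3 they were Zfp36 (-0.147) in RPF, Fos (-0.055) and Dusp1 (-0.040) in RNA, and Jun (-0.021), Egr1 (-0.073) and Zfp36 (-0.050) in translation efficiency. For Zfp36 in RNA the value was 0.020 with DESeq2, 0.023 with sva, 0.0048 with no filter, 0.0013 with a filter on RNA and 0.051 with the replicate block. With each embryo left out in turn, Atf3 ran from -0.124 to 0.120 and Dusp1 from -0.186 to 0.078 in RPF. In RNA, Fos ran from -0.0037 to 0.426, Jun from -0.045 to 0.177, Dusp1 from -0.060 to 0.048 and Zfp36 from -0.176 to 0.121. In translation efficiency, Dusp1 ran from -0.201 to 0.054 and Zfp36 from -0.089 to 0.277. Fos, Egr1 and Fosb rest on few RPF counts, and at this depth changes of the size seen for Junb may not be detectable there.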
